A study of Mus musculus with 486 samples.

Results

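Id2 and Id3 encode small helix-loop-helix proteins that lack a DNA-binding region, and 2 of the 47 gene assays on the panel measured their transcripts. They were taken by assay name, and the deposited table pairs them with the identifiers ENSMUSG00000020644 for Id2 and ENSMUSG00000007872 for Id3. The data are cycle threshold (Ct) values from single-cell RT-PCR on wt C57/Bl6 mouse bone marrow. A lower Ct means more transcript, with a 2-fold step for each cycle if the PCR is fully efficient. A gene counted as detected when its Ct was at most 28, and the value 40 stands for no Ct. Of 464 single cells, 463 had at least 2 of the 3 reference assays detected and were kept. They had been sorted as common lymphoid progenitors (CLP) or as FrA, a name the labels do not spell out, and by the surface markers Ly6d, Gfra2 and Bst1. The CLP groups were Ly6d-Gfra2- (87 cells), Ly6d+Gfra2- (86) and Ly6d+Gfra2+ (82), and the FrA groups were Gfra2-Bst1- (83), Gfra2+Bst1- (83) and Gfra2+Bst1+ (42). No treatment was given and no age or animal is named, so each group is 1 sample, and the cells of a group are not replicates of it.

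Id proteins bind E proteins, the helix-loop-helix factors encoded by Tcf3, Tcf12 and Tcf4, and the pairs they form cannot bind DNA. E proteins drive early B-cell genes such as Ebf1 and the recombinase genes Rag1 and Rag2, so Id2 and Id3 are known as brakes on that programme. Id2 is needed for natural killer and other innate lymphoid cells, and Id3 is known as a target of antigen receptor signals in T and B cells. Spib encodes an Ets factor that marks plasmacytoid dendritic cells and parts of the B lineage.

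Every group but Gfra2+Bst1+ FrA was spread over 2 plates, and each plate was filled from a single group, so plate and group cannot be told apart between groups. The mean Ct of the reference assays, a measure of the RNA read from a cell, lay between 11.22 in Ly6d-Gfra2- CLP and 12.62 in Gfra2-Bst1- FrA. Bcl11b, a T-lineage factor, had no Ct in any kept cell. Ebf1 was detected in 33.3% of Ly6d-Gfra2- CLP cells and in 100% of Ly6d+Gfra2+ CLP cells. A low share of cells may reflect fewer expressing cells or less RNA per cell, and these cannot be told apart where detection fails.

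Id2 was read in all 6 groups, in more CLP than FrA cells, while Id3 was read mostly in FrA cells. Id2 was detected in 41 of 87 Ly6d-Gfra2- CLP cells (47.1%, exact 95% interval 36.3 to 58.1). It was detected in 50 of 86 Ly6d+Gfra2- CLP cells (58.1%, 47 to 68.7) and in 39 of 82 Ly6d+Gfra2+ CLP cells (47.6%, 36.4 to 58.9). The highest of the CLP shares belonged to cells that carried Ly6d, a marker of B-lineage bias, and lacked Gfra2, a receptor of the GDNF family. In FrA, Id2 was detected in 30 of the 83 Gfra2-Bst1- cells (36.1%, 25.9 to 47.4). The Gfra2+Bst1- cells had it in 24 of 83 (28.9%, 19.5 to 39.9), and the Gfra2+Bst1+ cells in 13 of 42 (31.0%, 17.6 to 47.1). All intervals here cover counting error only. In descending order the Id2 shares ran from Ly6d+Gfra2- CLP through Ly6d+Gfra2+ CLP, Ly6d-Gfra2- CLP, Gfra2-Bst1- FrA and Gfra2+Bst1+ FrA to Gfra2+Bst1- FrA, and the intervals of each pair of neighbours overlapped.

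The plates of a group did not always give the same Id2 share. Plate 1 gave 60.0% and plate 10 gave 35.7% for Ly6d+Gfra2+ CLP, a gap of 24.3 points. Plates 2 and 8 gave 43.9% and 28.6% for Gfra2-Bst1- FrA. In the other groups with 2 plates the shares lay within 10 points of each other: 45.2% and 48.9% in Ly6d-Gfra2- CLP, 59.5% and 56.8% in Ly6d+Gfra2- CLP, and 33.3% and 24.4% in Gfra2+Bst1- FrA. The 6 CLP plates ranged from 35.7% to 60.0% (median 52.9%) and the 5 FrA plates from 24.4% to 43.9% (median 31.0%), so the compartments overlapped on the plate level for Id2.

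Id3 was detected in 1 of 87, 3 of 86 and 1 of 82 cells of the CLP groups in the order given, together 5 of 255 CLP cells (1.96%, 0.640 to 4.52). In FrA it was detected in 22 of the 83 Gfra2-Bst1- cells (26.5%, 17.4 to 37.3). The Gfra2+Bst1- cells had it in 12 of 83 (14.5%, 7.70 to 23.9) and the Gfra2+Bst1+ cells in 10 of 42 (23.8%, 12.1 to 39.5), together 44 of 208 FrA cells (21.2%, 15.8 to 27.3). The 6 CLP plates lay between 0% and 4.76% and the 5 FrA plates between 14.3% and 29.3%. Unlike Id2, the Id3 shares of the compartments did not overlap on any plate. The 42 cells of plate 5 and the 42 of plate 10 held no cell with Id3, which allows a share of up to 8.41% on each by the exact interval.

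**Figure D1:**
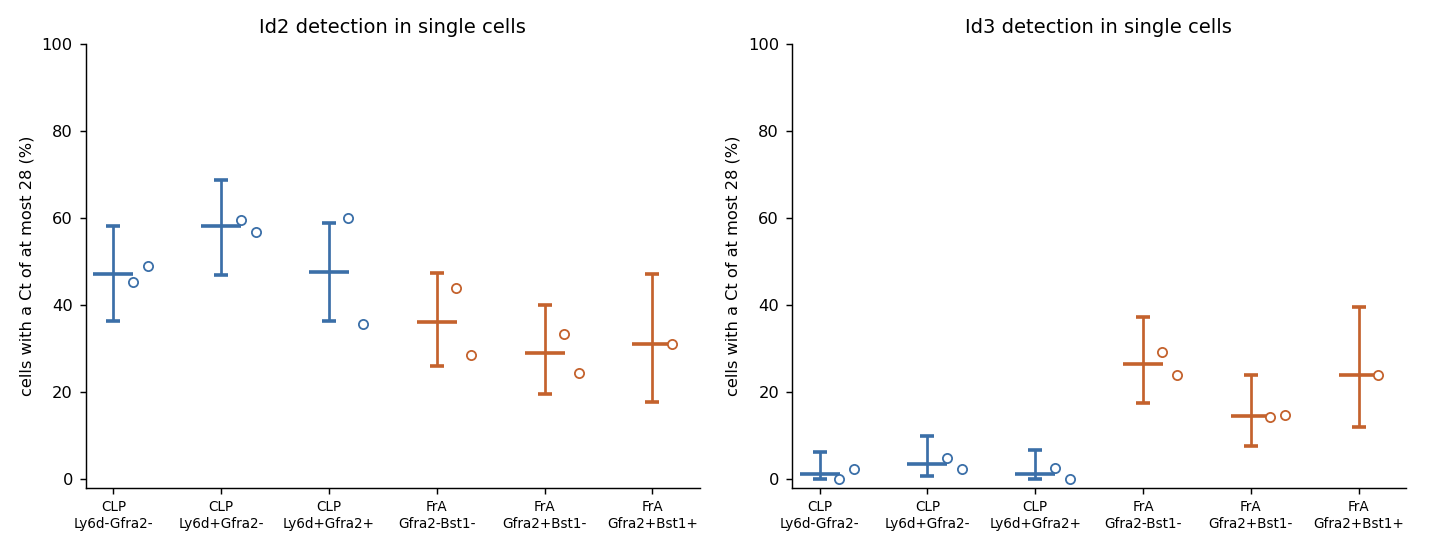
Share of single cells (%) with Id2 (left) or Id3 (right) detected in each sorted group; horizontal marks are the group's share, bars its exact 95% interval, and open circles the plates. Id2 plates of CLP (blue) and FrA (orange) overlap between 35.7% and 43.9%, while Id3 stays at or below 4.76% on all CLP plates and at or above 14.3% on all FrA plates.

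Where a cell had Id2, its Ct before scaling to the reference assays was similar in every group, as the plot of Ct by group shows. Relative to the reference assays, the Id2 differences in the comparisons below ran from -1.37 to +0.83 cycles. The first was Ly6d+Gfra2- minus Ly6d-Gfra2- CLP, and the last Gfra2+Bst1- FrA minus Ly6d+Gfra2+ CLP. The lowest, median and highest Id2 Ct were 11.48, 14.86 and 22.79 in Ly6d-Gfra2- CLP, 10.82, 15.11 and 18.65 in Ly6d+Gfra2- CLP, and 11.09, 14.25 and 18.11 in Ly6d+Gfra2+ CLP. They were 12.92, 14.97 and 18.52 in Gfra2-Bst1- FrA, 12.73, 14.80 and 19.82 in its Gfra2+Bst1- counterpart, and 12.91, 14.80 and 16.03 in the Gfra2+Bst1+ group. The group medians lay within 1 cycle of each other, while single cells of a group spanned several cycles. The earliest Ct values, below those of any FrA cell, were found in the CLP groups. Within Ly6d+Gfra2+ CLP the mean Id2 Ct was 13.63 ± 1.41 (SD, n = 24 cells) on plate 1 and 15.39 ± 1.38 (SD, n = 15 cells) on plate 10, the same pair of plates that differed in the share.

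Over fewer cells (49 against 197), Id3 had a narrower Ct range than Id2. Its Ct ran from 12.80 to 17.22 over all 49 cells that detected it, with a mean of 14.49 ± 1.22 (SD, n = 22 cells) in Gfra2-Bst1-, 14.48 ± 0.93 (SD, n = 12 cells) in Gfra2+Bst1- and 14.44 ± 0.88 (SD, n = 10 cells) in Gfra2+Bst1+ FrA. The 5 CLP cells with Id3 lay between 14.07 and 16.02, inside the range of the FrA cells. In Ct not scaled to the reference assays, the groups therefore differed in how many cells had an Id3 reading more than in how early it came. No Id2 or Id3 value in a single cell lay between 28 and 40, so the limit of 28 split no recorded values of these genes. The highest recorded Ct of any assay was 28.07, so later values that were never recorded cannot be seen.

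**Figure D2:**
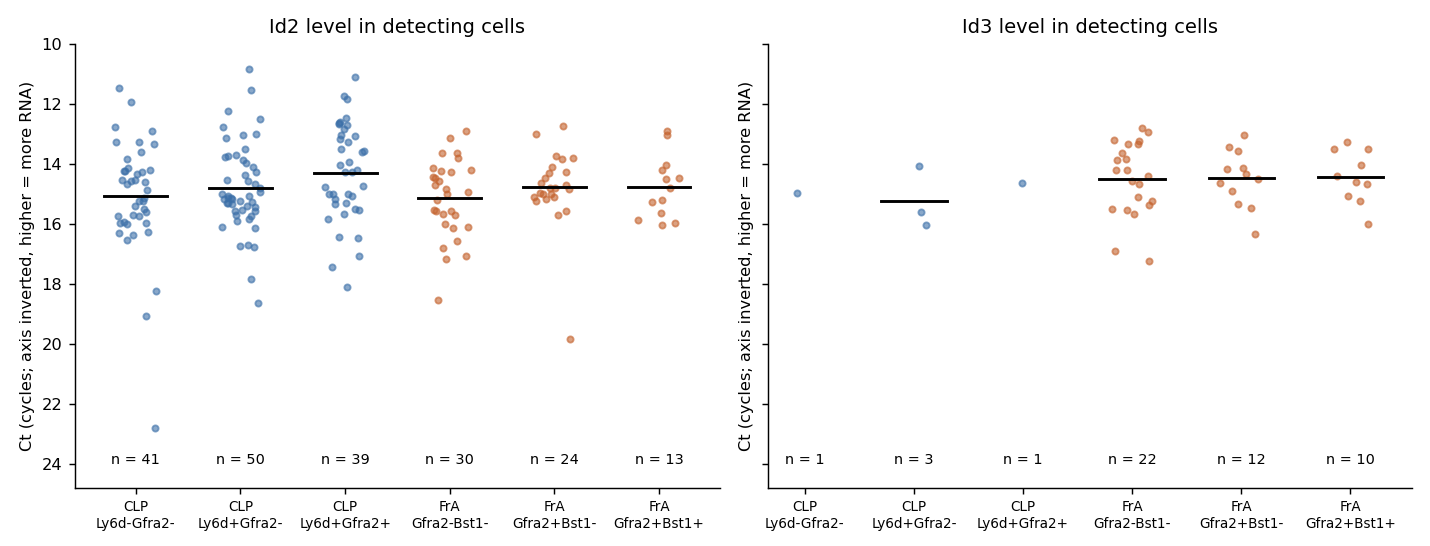
Ct in cycles of each single cell that detected Id2 (left) or Id3 (right) by sorted group, on an inverted axis so that more transcript is higher; black lines are means of groups with at least 3 detecting cells, and n counts those cells. Group means of Id2 lie between 14.31 and 15.15, and those of Id3 in FrA between 14.44 and 14.49.

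Differences between sorted groups were set against the panel. A difference in detection was called when it reached 20 points and the plates of one group all lay on one side of those of the other, and a difference in level when it reached 1 cycle in the same way with at least 10 detecting cells in each group. No p-value is given between groups of single cells. Both genes differed in opposite directions between Gfra2-Bst1- FrA and Ly6d+Gfra2- CLP, which both lack Gfra2. The Id2 difference was -22.0 points (Newcombe 95% interval -35.7 to -6.94) and the Id3 difference +23.0 points (12.6 to 33.6), where 11.1% of 45 assays were called. By size these were the rank 4 and rank 3 differences of the 45. The Id2 difference shrank to -14.2 points without plate 8 and was then no longer called, whereas it stayed past 20 points without any one of plates 2, 6 and 7. The mean reference Ct was 12.62 in these FrA cells and 12.24 in these CLP cells, and its part in the result was not tested. With detection counted relative to the reference assays the Id2 difference was -22.3 points. Ly6d-Gfra2- CLP also lacks Gfra2 and was not compared with FrA. Its Id2 share of 47.1% lay between the 58.1% of Ly6d+Gfra2- CLP and the 36.1% of Gfra2-Bst1- FrA.

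Between Gfra2+Bst1- FrA and Ly6d+Gfra2+ CLP, which both carry Gfra2, the directions were the same and neither gene reached 20 points. Id2 differed by -18.6 points (-32.4 to -3.82) and Id3 by +13.2 points (5.19 to 22.4), where 6.67% of assays were called. Here the plates of the CLP group decided the Id2 call, which came out at -6.80 points without plate 1 and -31.1 points without plate 10. It was also called without plate 3 (-23.2 points) and among cells in the middle 50% by reference Ct (-27.7 points).

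Among CLP, the Ly6d+Gfra2- cells differed from the Ly6d-Gfra2- cells by +11.0 points for Id2 (-3.80 to 25.2) and +2.34 points for Id3 (-3.23 to 8.68), neither called, against 8.89% of assays called. Gain of Gfra2 among Ly6d+ CLP came with a difference of -10.6 points for Id2 (-24.9 to 4.43) and -2.27 points for Id3 (-8.62 to 3.57), where 15.6% of assays were called. Without plate 1 the Id2 difference was -22.4 points and called, and without plate 10 it was +1.86 points. Neither step within CLP thus gave a call for Id2 or Id3 over all plates.

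Among FrA, gain of Gfra2 came with -7.23 points for Id2 (-21.0 to 6.95) and -12.0 points for Id3 (-24.0 to 0.295), against 24.4% of assays called. The Id3 plates were apart, at 23.8% and 29.3% in Gfra2- cells against 14.3% and 14.6% in Gfra2+ cells, but the difference was under 20 points. Cells that also carried Bst1, an ectoenzyme used here as a surface marker, differed from Gfra2+Bst1- cells by +2.04 points for Id2 (-13.8 to 19.4) and +9.35 points for Id3 (-4.44 to 25.2), with 6.67% of assays called. The Id2 difference at this step reached +21.1 points and was called among cells in the middle 50% by reference Ct.

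The Id2 level was called in none of the 6 comparisons, where the share of assays called for level was 14.8% of 27 for gain of Ly6d, 14.3% of 28 for gain of Gfra2 in CLP and 34.5% of 29 for gain of Gfra2 in FrA. It was 15.2% of 33 for gain of Bst1, 9.68% of 31 for FrA against CLP with Gfra2 and 17.9% of 28 for FrA against CLP without it. In that order the Id2 differences in mean Ct were -0.29, -0.49, -0.37, -0.02, +0.47 and +0.36 cycles. Id3 could be compared in level only within FrA, with -0.01 cycles for gain of Gfra2 and -0.05 cycles for gain of Bst1. These Id3 differences were +0.86 and +0.27 cycles relative to the reference assays. Relative to the reference assays the Id2 level in Ly6d+Gfra2- CLP was 1.37 cycles earlier than in Ly6d-Gfra2- CLP (a difference of -1.37) and called, beside mean reference Ct values of 12.24 and 11.22. Both level differences that involve Ly6d+Gfra2+ CLP turned on its plates: without plate 10 they were -1.16 cycles for gain of Gfra2 and +1.15 cycles for FrA against CLP, both called, and without plate 1 they were +0.59 and -0.61 cycles.

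Id2 and Id3 were seen in the same cell about as often as their separate shares would give. In Gfra2-Bst1- FrA, 10 of 83 cells had both genes, 20 had Id2 only, 12 had Id3 only and 41 had neither. The product of the shares of Id2 and Id3 in that group is 9.58% of cells, and 12.0% had both (exact 95% interval 5.93 to 21.0). In Gfra2+Bst1- FrA, 3 of 83 cells had both (3.61%, product 4.18%), and in Gfra2+Bst1+ FrA 3 of 42 had both (7.14%, product 7.37%). Over all 208 FrA cells 16 had both genes, 51 had Id2 only, 28 had Id3 only and 113 had neither, a phi coefficient of 0.05 over cells that share plates and input. Cells with both genes, with either alone and with neither were thus all present in each FrA group.

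Put as a share of cells, Id3 was detected in 33.3% of the 30 cells with Id2 and 22.6% of the 53 without it in Gfra2-Bst1- FrA (+10.7 points, -8.41 to 30.8). In Gfra2+Bst1- FrA the shares were 12.5% of 24 and 15.3% of 59, and in Gfra2+Bst1+ FrA 23.1% of 13 and 24.1% of 29. In CLP, 3 of the 5 cells with Id3 also had Id2. The 19 cells of all groups with both genes had an Id2 Ct of 14.98 ± 1.11 and an Id3 Ct of 14.58 ± 1.16 (SD, n = 19 cells), and the Pearson r between them was -0.22 over these cells, which come from several plates. The share of cells with at least 1 of the genes was 50.6%, 39.8% and 47.6% in the FrA groups and 47.1%, 59.3% and 48.8% in the CLP groups, in the order given at the opening.

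**Figure D3:**
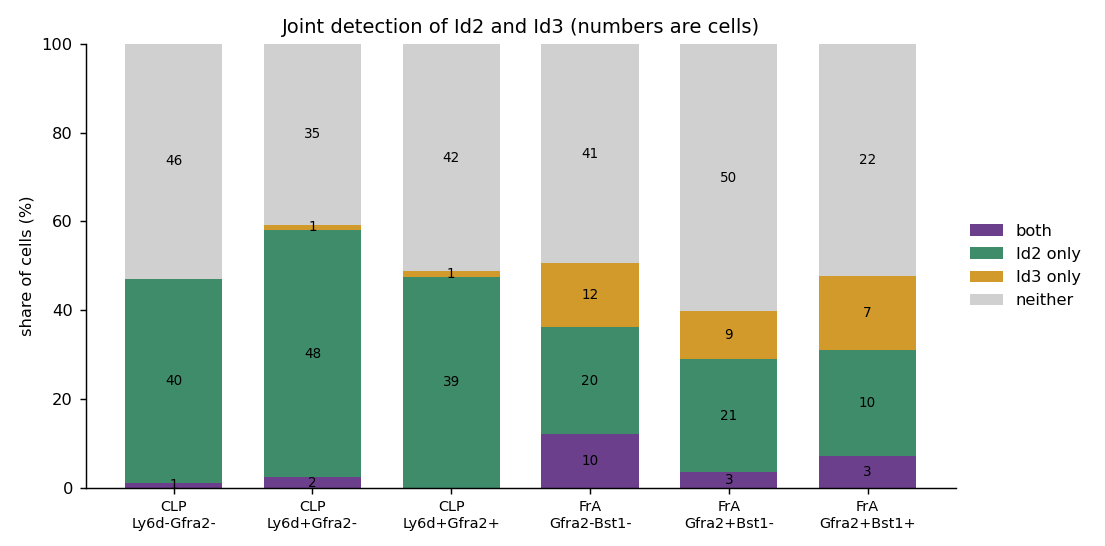
Share of cells (%) of each sorted group with both Id2 and Id3, Id2 only, Id3 only or neither, with the number of cells written in each segment. Id3-only cells number 12, 9 and 7 in the FrA groups and 0, 1 and 1 in the CLP groups.

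The relation of each gene to Ebf1, Rag1 and Spib was read within groups, as the share of cells with the partner among cells with and without the Id gene. A relation was called at 20 points or more with the same sign on every plate that had at least 5 cells on both sides, over assays detected in 5% to 95% of the group's cells. In Gfra2-Bst1- FrA, where Ebf1 was detected in 54.2% of cells, Rag1 in 19.3% and Spib in 62.7%, the calls for Id2 and Id3 fell on different partners. Spib was detected in 14 of 30 cells with Id2 (46.7%) and 38 of 53 cells without Id2 (71.7%), a difference of -25.0 points (-44.4 to -3.32) that was called, where 13% of 23 assays were called. The plates gave -28.3 and -23.9 points, but among cells in the middle 50% by reference Ct the difference was 0 points. Ebf1 was detected in 56.7% of cells with Id2 and 52.8% without, and Rag1 in 20.0% and 18.9%, with plates on both sides of 0 for each.

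For Id3 in the same group the pattern lay elsewhere. Ebf1 was detected in 8 of 22 cells with Id3 (36.4%) and 37 of 61 without Id3 (60.7%), -24.3 points (-44.4 to -0.104). Rag1 was detected in 1 of 22 cells with Id3 (4.55%) and 15 of 61 without Id3 (24.6%), -20.0 points (-32.7 to -0.547). Both were called, where 17.4% of 23 assays were called. Without plate 2 these Id3 differences were -16.3 points for Ebf1 and -18.1 points for Rag1, under the limit, and with no cell left out the Rag1 difference was -19.6 points. Spib was detected in 17 of 22 cells with Id3 (77.3%) and 35 of 61 without it (57.4%), +19.9 points (-3.85 to 37.6), just short of the limit, with +16.4 and +23.8 points on the plates. That Id3 and Spib difference was called under 4 other settings: 20.8 points with no cell left out, 20.6 points with every reference assay required, 20.5 points relative to the reference assays and 23.8 points without plate 2.

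The 4 classes of cells in Gfra2-Bst1- FrA show how the genes combine. Spib was detected in 11 of 12 cells with Id3 only (91.7%, 61.5 to 99.8), 6 of 10 cells with both, 8 of 20 cells with Id2 only (40.0%, 19.1 to 63.9) and 27 of 41 cells with neither (65.9%). Ebf1 was detected in 4 of 12 cells with Id3 only, 4 of 10 with both, 13 of 20 with Id2 only (65%) and 24 of 41 with neither (58.5%). Rag1 was detected in 0 of 12 cells with Id3 only, 1 of 10 with both, 5 of 20 with Id2 only and 10 of 41 with neither. Cells with Id3 but not Id2 had the highest Spib share of the classes, and the exact intervals of the small classes are wide.

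Read from the partners, Id3 was detected in 12 of 33 cells with Spib but not Ebf1 (36.4%), 5 of 19 with both (26.3%), 3 of 26 with Ebf1 but not Spib (11.5%) and 2 of 5 with neither. Id2 was detected in 8 of 33 (24.2%), 6 of 19 (31.6%), 11 of 26 (42.3%) and 5 of 5 of the same classes. The order of the first 3 classes was thus opposite for Id2 and Id3, but their exact intervals overlapped for each gene. The class of 5 cells with neither partner had the highest share of both genes. These classes divide the same cells as the relations above and are no separate evidence. Where Ebf1 was detected, it came at a later Ct in cells with Id2, 14.95 ± 3.20 (SD, n = 17 cells) against 13.27 ± 1.76 (SD, n = 28 cells) without, a difference of 1.67 cycles that was 1.16 and 2.19 cycles on the plates. The medians were 14.50 and 13.02 cycles, and 1 cell with Id2 had an Ebf1 Ct as late as 25.48. In cells with and without Id3 the Ebf1 Ct was 14.09 ± 1.77 (SD, n = 8 cells) and 13.87 ± 2.66 (SD, n = 37 cells). In the other sorted groups the Ebf1 Ct of cells with Id2 differed from that of cells without it by between -0.23 and +0.31 cycles. Such Ct differences were read for the 3 partners only, with no share over all assays beside them.

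**Figure D4:**
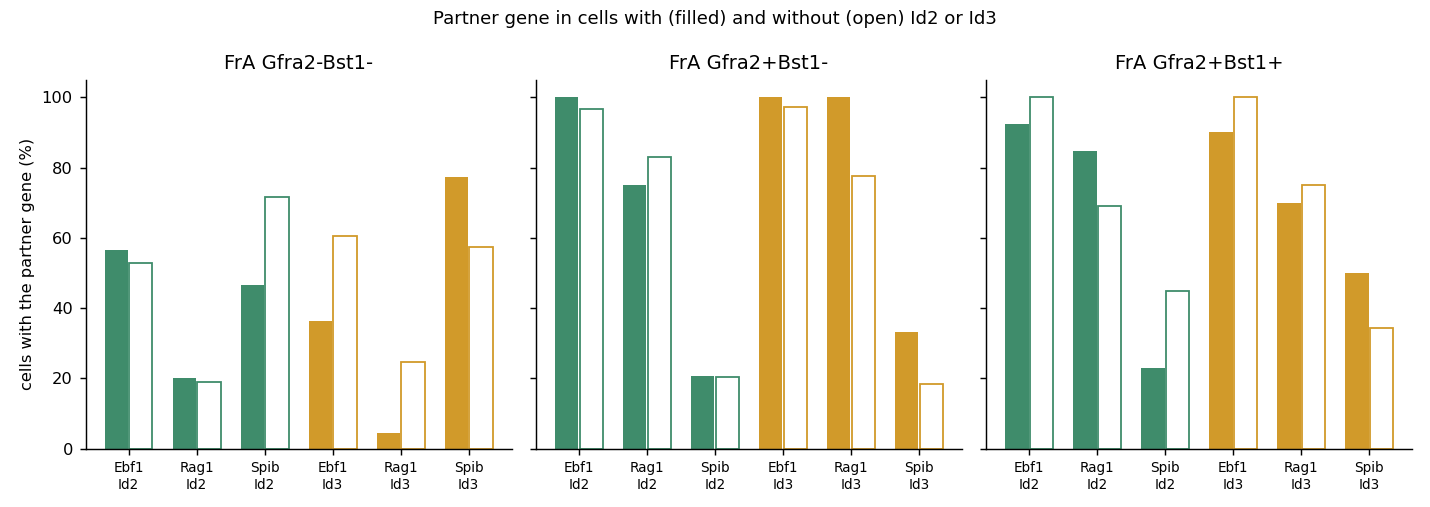
Share of cells (%) with Ebf1, Rag1 or Spib detected among cells with (filled bars) and without (open bars) Id2 (green) or Id3 (yellow), in the 3 FrA groups. In Gfra2-Bst1- cells Spib stands at 46.7% with Id2 against 71.7% without it, and at 77.3% with Id3 against 57.4% without it.

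In Gfra2+Bst1- FrA, where Ebf1 was detected in 97.6% of cells and could show little difference, Rag1 was detected in 12 of 12 cells with Id3 and 55 of 71 without (77.5%), +22.5 points (-3.05 to 33.5). This was called, where 8.7% of 23 assays were called, but it was 16.7 points without plate 4 and, at 25.6 points, was not called among the middle 50% of the reference Ct. Where Rag1 was detected, its Ct was later with Id3, 15.01 ± 1.24 (SD, n = 12 cells) against 14.12 ± 1.11 (SD, n = 55 cells). That difference was 0.89 cycles, with 0.23 and 1.52 cycles on the plates. Spib was detected in 33.3% of cells with Id3 and 18.3% without it (+15.0 points, and +21.9 points without plate 3, then called). No relation of Id2 was called here (0% of 23 assays). Rag1 stood at 75% with Id2 and 83.1% without it, and without plate 4 this Id2 difference was -21.4 points and called. Spib stood at 20.8% and 20.3%.

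Gfra2+Bst1+ FrA lay on 1 plate, so its relations have no second plate to compare. Spib was detected in 3 of 13 cells with Id2 (23.1%) and 13 of 29 without Id2 (44.8%), -21.8 points (-44.8 to 10.0), where 22.7% of 22 assays were called. Relative to the reference assays the Id2 and Spib difference was -19.8 points, and it was also -19.8 points with every reference assay required, while in the middle 50% by reference Ct it was -62.5 points and called. Spib was detected in 50.0% of cells with Id3 and 34.4% without it, +15.6 points (-15.9 to 45.4), where 31.8% of assays were called for Id3. Rag1 was detected in 7 of 10 cells with Id3 and 24 of 32 without it, -5 points, against +20.0 points and a call in the middle 50% by reference Ct. Cells with Id2 had a later median reference Ct than cells without it (12.37 against 11.66), and cells with Id3 an earlier one (11.54 against 12.34); the part of this in the relations was not tested. Among the kept cells Spib was more often detected with Id3 than without it in each FrA group, by 15.0 to 19.9 points. None of these differences was past the limit, and each interval spanned both signs. The median difference with Id3 over all assays in range was -1.34 points in Gfra2-Bst1-, +7.63 in Gfra2+Bst1- and +9.38 in Gfra2+Bst1+ FrA. Detection in general was thus also higher with Id3 in the Gfra2+ groups, and its part in the Spib differences was not tested.

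In CLP, Id2 showed no called relation to any of the 3 partners. In Ly6d-Gfra2- CLP, Ebf1 was detected in 34.1% of cells with Id2 and 32.6% without, and no assay of 17 was called (0%). In Ly6d+Gfra2- CLP, Ebf1 stood at 74% and 72.2%, Spib at 20.0% and 19.4%, and Rag1 at 28.0% and 41.7%, a difference of -13.7 points (-32.9 to 6.28) beside 5.26% of 19 assays called. Without plate 7 this Id2 and Rag1 difference was -26.8 points and called. In Ly6d+Gfra2+ CLP, Rag1 stood at 76.9% and 76.7% and Spib at 7.69% and 6.98% in cells with and without Id2, beside 15% of 20 assays called. The 5 CLP cells with Id3 were too few for such a comparison: 4 of them had Ebf1, 3 had Rag1 and 1 had Spib.

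A list of 22 genes held E-protein and Id genes, genes that E proteins are known to act on, and Nfil3 as a regulator of Id2. Of these, 13 were on the panel: Ebf1, Foxo1, Pax5, Pou2af1, Rag1, Rag2, Dntt, Igll1, Il7r, Notch1, Gata3, Bcl11a and Nfil3. Tcf3, Tcf12 and Tcf4 were not analysed here. In Gfra2-Bst1- FrA, 8 of the 13 were in range, and 3 were called lower and 0 higher in cells with Id3, beside 3 lower and 1 higher of all 23 assays in range. Ebf1 and Rag1, given above, are among the 3. The median difference of the 8 was -11.7 points against -1.34 points over all 23 assays. The other was Rag2, the partner of Rag1 in the recombinase, with 7 of 22 cells with Id3 (31.8%) against 41 of 61 without Id3 (67.2%), -35.4 points (-54.1 to -11.1). For Id2 in that group 0 of the 8 were called, with a median of +4.28 points against +5.53 over all assays. Foxo1, a factor upstream of Rag gene expression, came nearest with 76.7% of cells with Id2 and 96.2% without it.

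In Gfra2+Bst1- FrA the list gave 1 of 7 higher (Rag1) and 0 lower with Id3, and 0 of 7 either way with Id2. In Gfra2+Bst1+ FrA it gave 1 of 7 higher with Id3, which was Pou2af1, a B-cell coactivator (90.0% against 65.6%), and 2 of 7 lower with Id2. These were Pou2af1 (53.8% with Id2 against 79.3% without) and Nfil3, a factor needed for innate lymphoid cells (30.8% against 62.1%). Over all 22 assays of that group 6 were called higher and 1 lower with Id3, and 5 lower with Id2. In the CLP groups 0 of 6, 0 of 7 and 0 of 6 in-range genes of the list were called with Id2. Rag1 and Rag2 were thus both called lower with Id3 in Gfra2-Bst1- cells alone, and the difference from the other FrA groups was not tested. Rag2 was detected in most cells of those other groups. It stood at 91.7% with Id3 and 93.0% without it in Gfra2+Bst1- FrA, and at 100% and 90.6% in Gfra2+Bst1+ FrA.

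Outside the list, Id2 in Gfra2-Bst1- FrA went with Il2rb, a cytokine receptor chain of natural killer cells (36.7% with Id2 against 11.3% without, +21.7 and +22.7 points on the plates), and with Bcl2l1, a survival gene (56.7% against 26.4%, +8.33 and +49.3 points on the plates). Of the 4 natural killer and innate lymphoid markers on the panel, cells with Id2 had 1.03 ± 0.89 detected and cells without it 0.68 ± 0.70 (SD over 30 and 53 cells). Il2rb is one of these markers, and Klrb1c, another, was detected in 3.33% of cells with Id2 and 9.43% without it. The cells with Id2 also had more of the 3 granulocyte-monocyte markers, 1.13 ± 0.68 against 0.79 ± 0.45, and of the 4 T-lineage markers, 2.00 ± 0.53 against 1.68 ± 0.47. The part of these markers in the Id2 relations was not tested. Median reference Ct was 12.48 with Id2 and 12.59 without it, and the number of other assays detected per cell was 21.6 ± 2.93 and 20.9 ± 3.11.

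Cells with Id3 in Gfra2-Bst1- FrA had 0.55 ± 0.86 of the 5 B-cell progenitor markers on the panel and cells without it 0.93 ± 0.98 (SD over 22 and 61 cells). In Gfra2+Bst1- FrA the order was the other way, 3.50 ± 1.00 with Id3 and 3.03 ± 1.18 without it. Median reference Ct in Gfra2-Bst1- FrA was 12.53 in both classes. Gfra1, a receptor of the same family as Gfra2, was detected in 68.2% of these cells with Id3 and 47.5% without it, the 4th call of that group. Lck, a T-cell kinase, was detected in 91.7% of Gfra2+Bst1- cells with Id3 and 63.4% without it, and in 7 of 10 (with Id3) and 13 of 32 (without it) of the Gfra2+Bst1+ cells, both called.

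In CLP the other called relations of Id2 were few. In Ly6d+Gfra2- CLP, Gfra1 was detected in 46% of cells with Id2 and 72.2% without it. In Ly6d+Gfra2+ CLP, Bcl2l1 (66.7% against 41.9%), Lck (64.1% against 41.9%) and Klrb1c, a natural killer receptor gene (38.5% against 16.3%), were more often detected with Id2, although Klrb1c differed by 1.48 points on one plate and 37.5 on the other, and Bcl2l1 by 4.17 and 49.6.

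No assay matched Id2 closely from cell to cell. The phi coefficient, averaged over the groups where both genes could be scored, was highest with Il2rb (0.09), Mpo (0.07), a granulocyte enzyme gene, and Gata3 (0.05), and lowest with Igll1 (-0.14), among 25 assays. For Id3 it was highest with Lck (0.21), Spib (0.15) and Bcl2 (0.14) and lowest with Mpo (-0.18), among 15 assays. Across the 11 plates the share of cells with Id3 followed that of Spib (Pearson r = 0.90), ahead of Bach2 (0.57) and Foxo1 (0.44), and the share with Id2 was nearest to Mpo (0.71). CLP and FrA plates stand apart for these genes, and within the 6 CLP plates r was 0.47 for Id3 with Spib and -0.09 for Id2 with Mpo. Over the sorted groups Spib was detected in 1.15%, 19.8% and 7.32% of the CLP groups and 62.7%, 20.5% and 38.1% of the FrA groups. This puts the groups in the same order as the Id3 shares, but the Id3 order within CLP rests on 1, 3 and 1 cells.

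Wells of 10 and 20 sorted cells, 1 of each on 10 plates, gave a second reading of both genes. Id2 was detected in every one of these 20 wells. In wells of 10 cells its Ct was 10.62, 12.44, 12.22, 14.24, 10.99 and 11.94 for CLP (plates 1, 5, 6, 7, 9 and 10) and 13.93, 13.71, 11.80 and 14.25 for FrA (plates 2, 3, 4 and 8). In wells of 20 cells it was 9.62, 11.29, 12.46, 10.66, 10.28 and 10.27 for CLP and 11.78, 10.87, 10.62 and 12.69 for FrA. More cells gave an earlier Ct on 9 of 10 plates, and the compartments overlapped at both sizes.

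Wells of 20 cells had an Id2 Ct of 11.06 ± 0.99 (SD, n = 10) and wells of 10 cells 12.61 ± 1.34 (SD, n = 10), a difference of -1.56 cycles (two-sided permutation test over wells, p = 0.0106, Benjamini-Hochberg adjusted over both genes 0.0211). That test ignored the pairing of wells by plate, and the exact sign-flip test over plates gave p = 0.00391 for Id2. A doubling of cells at full efficiency would shift the Ct by 1 cycle. Relative to the reference assays the difference was -0.69 cycles (permutation p = 0.0667, adjusted 0.0667). FrA and CLP wells differed in Id2 by +1.35 cycles at 10 cells (exact two-sided permutation test, p = 0.152, adjusted over 4 tests 0.203) and +0.73 cycles at 20 cells (exact p = 0.305, adjusted 0.305), with later values for FrA and no call.

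Id3 set the compartments apart in these wells as in single cells. In wells of 10 cells it had no Ct in any of the 6 CLP wells and a Ct of 13.98, 14.87, 14.31 and 13.73 in the FrA wells. In wells of 20 cells it was read at 14.54, 16.13, 14.28, 15.14 and 15.96 in CLP wells of plates 1, 5, 6, 7 and 10, had no Ct on plate 9, and was read at 12.11, 13.59, 10.50 and 12.77 in the FrA wells. Every FrA well lay below every CLP well of the same size. With wells lacking a Ct set to 28, the exact two-sided permutation test gave p = 0.00952 at each size, the smallest that 4 against 6 wells allow (adjusted over 4 tests 0.0190). Relative to the reference assays the adjusted exact p was 0.0381 at both sizes, with overlap at 20 cells. This comparison was added after the values had been seen. Once the wells of a size lay fully apart, the test could only give its smallest p. The wells of each compartment came from several sorted groups and from no named animal. These p-values therefore describe the wells and not a difference between the compartments. Between sizes the Id3 difference of -7.19 cycles (permutation p = 0.0239, adjusted 0.0239) rested on wells without a Ct, since it was -0.33 cycles (permutation p = 0.778) over the 9 and 4 wells with one.

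The single cells and the pooled wells could be set side by side. From the share of 1.96% of CLP cells with Id3, 18.0% of wells of 10 cells and 32.7% of wells of 20 cells would hold at least 1 detecting cell. Id3 was read in 0 of 6 and 5 of 6 such wells (83.3%, exact 95% interval 35.9 to 99.6). On plates 5 and 10 the 20-cell well had Id3 although none of the 42 single cells of that plate had it. For Id2 the Ct of CLP wells lay a median of 0.19 cycles (10 cells) and 0.11 cycles (20 cells) later than the sum of the same plate's single cells would give. In FrA wells the median Id2 difference was +0.96 cycles (-1.31 to 1.51 over 4 wells) at 10 cells and -0.24 cycles (-1.49 to 0.37) at 20 cells. Single CLP wells differed from that sum by between -1.68 and +2.84 cycles.

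**Figure D5:**
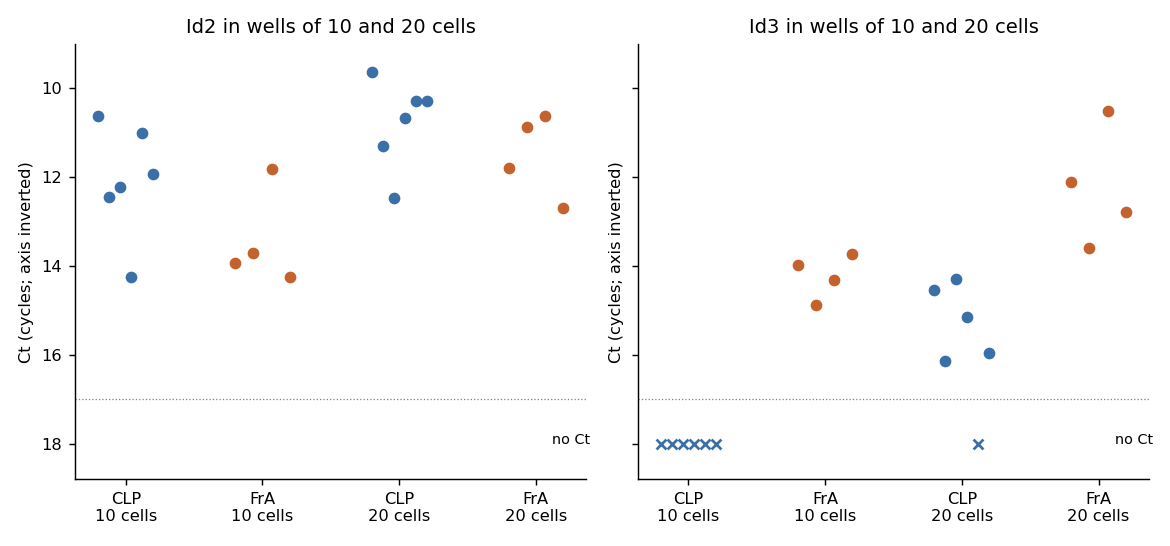
Ct in cycles (inverted axis) of Id2 (left) and Id3 (right) in wells of 10 and 20 cells from CLP (blue, 6 wells of each size) and FrA (orange, 4 of each); crosses under the dotted line are wells with no Ct, placed at an arbitrary height. Id3 has no Ct in the 6 CLP wells of 10 cells and lies between 13.73 and 14.87 in the FrA wells of 10 cells.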

How the data were processed

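The authors deposited 1 table of Ct values for 48 assays (47 genes and a spike-in) in 486 wells, here of the unit "other". Per the labels' protocols, sorted cells were lysed, reverse transcribed and pre-amplified with TaqMan assays and measured on a BioMark chip from Fluidigm. For instrument settings, thresholds and normalisation the sources used here give nothing. The unit was read from the labels and from the values, which run from 4.69 to 28.07 apart from the value 40 (46.8% of entries).

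Groups came from the labels: 464 single cells, 10 wells of 10 cells, 10 wells of 20 cells, and 2 wells with conflicting labels that entered no comparison. The 2 assays of sort markers and the spike-in were left out of the 45 assays counted; 1 reference gene is not reported by name. Shares carry exact (Clopper-Pearson) 95% intervals and differences Newcombe intervals, for counting error only. The labels name no animal or culture for the pooled wells either, so their p-values, from 100000 resamples or exact, measure only the spread between wells, which may be technical. Python 3.11.15, pandas 2.3.3, numpy 2.4.6 and scipy 1.17.1 were used, and the scripts were tested on simulated data.

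The numbers of plates pair wells of 10 and 20 cells that the labels place on the same plate. Id2, Id3, their partners, the lists and the rules were chosen with earlier results of these data known. Named genes were Id2 and Id3 in full, their 3 partners, the listed E-protein genes, and assays past the limits or nearest in pattern. Alternatives were other Ct limits (24, 20, any Ct), cell filters, scaling to the reference assays, the middle 50% of the reference Ct, median Ct, and each plate left out. No sequences or coordinates are given, because the files name neither a genome build nor the probes.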

Additional observations from a re-analysis of the deposited data

Results flagged for a closer look

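A well on plate 8 whose title marks it as a control without reverse transcriptase had an Id2 Ct of 14.26, inside the range of single cells, in data that entered no comparison. Its reference assays had a mean Ct of 12.41 and 25 gene assays were detected. The other such well had no Id2 Ct, a mean reference Ct of 11.65 and 26 gene assays detected, and Id3 had no Ct in either. Their descriptions call both wells cells.

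The relations of Id3 to the detection of Rag1 and of Ebf1 had opposite signs in 2 FrA groups on every plate, and the difference was not tested. For Rag1 the difference between cells with and without Id3 was -20.0 points in Gfra2-Bst1- and +22.5 points in Gfra2+Bst1- FrA, 42.6 points apart. For Ebf1 it was -24.3 and +2.82 points, 27.1 points apart, with Ebf1 in 97.6% of Gfra2+Bst1- cells. Of 4 groups of wells, 0 had a value far from the others by Dixon's criterion.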

How the results depend on the processing

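Of 434 alternative values, 399 kept their direction or range and their side of the limit. Another 16 moved past the limit, 12 fell short of it, 7 moved without a change of call and 0 reversed a call. The 399 include values that could not move and values short of the limit that changed sign, neither of which were counted apart. For example, the Id2 and Ebf1 difference in Gfra2-Bst1- FrA was +3.84 points over all kept cells and -10.9 points without plate 8. In single cells the highest recorded Ct was 22.79 for Id2 and 17.22 for Id3. A Ct limit above that value could not change the share of cells with the gene. All Id3 differences between sorted groups and all joint shares were among those that kept their side. Every other Ct limit tried lay above the highest Id3 Ct, so these limits did not test the Id3 differences between sorted groups. Among cells in the middle 50% by reference Ct, Id2 differed by 21.1 points at gain of Bst1 and by -27.7 points between FrA and CLP with Gfra2. There, Id2 relations were 13.3 points for Rag1 in Ly6d-Gfra2- CLP, -18.5 (Ebf1), -19.3 (Rag1) and 0 (Spib) in Gfra2-Bst1- FrA, and -62.5 (Spib) in Gfra2+Bst1+ FrA; Id3 with Rag1 was 25.6 in Gfra2+Bst1- and 20.0 in Gfra2+Bst1+ FrA (-5 over all kept cells). For Gfra2-Bst1- FrA, Id3 with Rag1 was -19.6 with no cell left out, and Id3 with Spib 20.8 with no cell left out, 20.6 with all reference assays required and 20.5 relative to them; Id2 with Spib in Gfra2+Bst1+ FrA was -19.8 under both of the last settings (-19.83 and -19.78). Relative to the reference assays the Id2 level difference was -1.37 cycles at gain of Ly6d and 0.54 cycles at gain of Gfra2 in FrA.

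With each plate left out in turn, Id2 share differences ran from -22.4 to 1.86 points at gain of Gfra2 in CLP, from -31.1 to -6.80 between FrA and CLP with Gfra2, and from -29.6 to -14.2 without Gfra2. Id2 level differences ran from -1.16 to 0.59 cycles at gain of Gfra2 in CLP and from -0.61 to 1.15 cycles between FrA and CLP with Gfra2. In Gfra2-Bst1- FrA, Id3 relations ran from -32.2 to -16.3 points (Ebf1), -20.7 to -18.1 (Rag1) and 16.4 to 23.8 (Spib). In Gfra2+Bst1- FrA they ran from 16.7 to 28.6 for Id3 with Rag1, 8.33 to 21.9 for Id3 with Spib and -21.4 to 5.81 for Id2 with Rag1, and in Ly6d+Gfra2- CLP from -26.8 to -2.32 for Id2 with Rag1. The cause of these changes was not tested.

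With the plate as a replicate block, the 20-cell minus 10-cell difference was -1.56 cycles for Id2 and -7.19 cycles for Id3 (exact sign-flip test over 10 plates, p = 0.00391 for each), and no call changed. The Id3 difference was -0.33 cycles with wells lacking a Ct left out and -6.32 cycles relative to the reference assays (permutation p = 0.0489, adjusted 0.0667), and the Id2 difference was -0.69 cycles in the latter setting. Small classes limit the relations: 22, 12 and 10 cells had Id3 in the FrA groups.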
